A study of Mus musculus with 6 samples.

Results

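The genes described here are 10 members of the JAK-STAT5 pathway, out of 24532 gene IDs listed in the tables: the transcription factors Stat5a and Stat5b, the kinase Jak2, the feedback inhibitors Cish, Socs1, Socs2 and Socs3, the kinases Pim1 and Pim2, and Id1. They were chosen by name, with earlier results of these data known, and matched by Entrez Gene ID, and all 10 were found. They were measured by RNA sequencing in 6 libraries of cells sorted from the bone marrow of C57BL/6J mice, 2 libraries in each of 3 groups. BaP cells, basophil precursors by their source name, lacked lineage markers and c-Kit but carried CD34. They also bound MAR1, an antibody that recognises the IgE receptor Fc epsilon RI on its alpha subunit. MAR1HI and MAR1INT cells lacked lineage markers, CD34 and c-Kit, carried CD200R3, and differed from each other in a high or an intermediate binding of MAR1. No treatment, genotype, age or number of animals per library is given in the sources used here. The series' text calls the libraries of a group biological duplicates. If they do not come from separate animals, the p-values below measure technical spread only.

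In JAK-STAT5 signalling, a cytokine such as interleukin 3, GM-CSF, interleukin 5 or TSLP joins receptor chains that carry JAK kinases. JAK2 sits on the beta chain shared by the first 3 of these receptors, and it phosphorylates STAT5A and STAT5B, which pair up, enter the nucleus and bind DNA at sites with the core TTCNNNGAA. The genes they switch on include brakes on the pathway itself (Cish and the Socs genes) and growth and survival genes such as the Pim kinases. In basophils the pathway carries the signals of interleukin 3 and TSLP, and STAT5 is needed for basophils to form. Whether STAT5 is active depends on phosphorylation, which transcript levels do not measure.

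The members stood highest in MAR1INT and lowest in BaP, with MAR1HI between them, in their means for 9 of 10 genes (Socs1 was the exception). Between MAR1INT and BaP 6 of 10 were called higher (Stat5b, Jak2, Socs2, Pim1, Pim2 and Id1) and 0 lower. Of all 11337 genes tested, 11.1% were called higher and 20.4% lower in that comparison. Here a call means an adjusted p under 0.05 in limma on log2(TPM + 1). TPM is a gene's share of 1000000 transcripts, a level already divided by transcript length. Between MAR1HI and BaP 2 of 10 were called higher (Jak2 and Id1) against 1.83% of all genes, and 0 lower against 0.662%. Between MAR1INT and MAR1HI 3 of 10 were called higher (Jak2, Socs2 and Pim1) against 2.29% of all genes, and 0 lower against 14.5%. The median member differed by 1.37 (log2) between MAR1INT and BaP, where the median tested gene differed by -0.16. For MAR1HI against BaP these medians were 0.48 and 0.24, and for MAR1INT against MAR1HI 0.57 and -0.36. These counts depend on single libraries. Without either BaP library fewer members were called in both comparisons with BaP, and fewer of all genes as well. The same held for both comparisons with MAR1HI when either MAR1HI library was left out. These losses are therefore not particular to the members. Socs2 and Socs3 reached the minimum for testing (1 TPM in 2 libraries) only through MAR1INT, the group where they were highest, so their place in these counts follows in part from the filter. Of the other 8 members, 5 were called higher in MAR1INT than in BaP, 2 in MAR1INT than in MAR1HI and 2 in MAR1HI than in BaP, with medians of 1.37, 0.50 and 0.71. The 3 comparisons share libraries and are not independent of each other. In bulk samples a change in the share of cells of a type cannot be told apart from a change in RNA per cell.

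**Figure D1:**
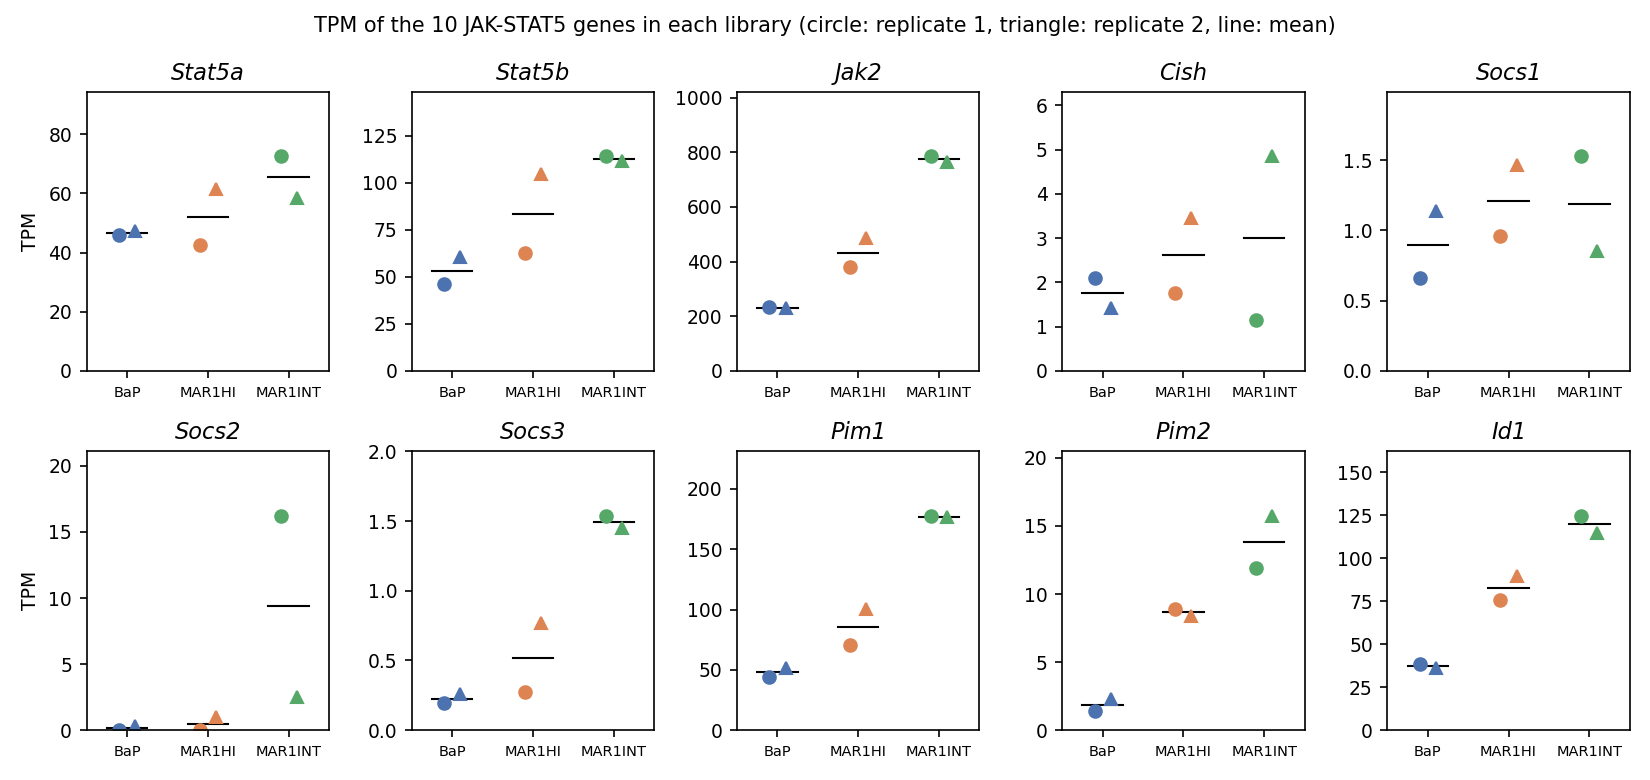
TPM of each of the 10 genes (vertical axis, from 0, a scale of its own in each panel) in the 6 libraries, by group (horizontal axis); points are libraries and lines are group means. Jak2, Pim1, Pim2 and Id1 form 3 separate steps from BaP to MAR1INT, Stat5b overlaps in no pair of groups, and the points of Cish and Socs1 overlap between all groups.

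Jak2 (gene 16452, mm10 chromosome 19, 29251803 to 29313080), the kinase bound to the shared beta chain, was the most abundant of the 10. Its level was 232 and 231 TPM in the BaP libraries, 381 and 485 in MAR1HI, against 785 and 763 in MAR1INT. Every MAR1HI library lay above both BaP libraries, and both MAR1INT libraries lay above every other, with duplicates closer to each other than to any other group. The group levels were 232 ± 0.682, 433 ± 73.6 and 774 ± 15.8 TPM (SD, n = 2). MAR1INT exceeded BaP by 1.73 on the log2 scale (SE 0.19, adjusted p = 0.00031), a 3.33-fold difference in TPM + 1. That difference was called under each of the 15 alternative settings (1.49 to 1.76, adjusted p from 7.76e-07 to 0.0099). The steps on either side of MAR1HI were of similar size, 0.89 above BaP (SE 0.19, adjusted p = 0.0489) and 0.85 below MAR1INT (SE 0.19, adjusted p = 0.0176). The first was called in 4 of 15 alternatives (adjusted p up to 0.298) and the second in 11 of 15 (up to 0.0954). Among the 24532 listed genes, Jak2 ranked between percentiles 97.9 and 99.2 of TPM in each library.

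The paralogs Stat5a and Stat5b are neighbours on chromosome 11, and the difference between their courses was not tested. Stat5b (gene 20851, 100780731 to 100850585, minus strand) stood at 46.1 and 60.5 TPM in BaP, 62.7 and 104 in MAR1HI, against 114 and 111 in MAR1INT. No value of one group fell within the range of another, but the MAR1HI libraries were far apart, and the lower of them lay just above BaP. The difference between MAR1INT and BaP was 1.08 (SE 0.29, adjusted p = 0.0208), a 2.11-fold difference in TPM + 1. It was not called without either BaP library (adjusted p = 0.169 without replicate 1 and 0.0625 without replicate 2), with no filter (0.078) or without the variance trend (0.0565). Stat5a (gene 20850, 100859351 to 100885169, plus strand) stood at 45.9 and 47.3 TPM in BaP, 42.6 and 61.3 in MAR1HI, against 72.5 and 58.5 in MAR1INT. The MAR1HI libraries lay on both sides of BaP, and 1 of them lay above the lower MAR1INT library. No difference of Stat5a was called: MAR1INT minus BaP was 0.47, with a 95% interval from -0.15 to 1.10 (adjusted p = 0.223). MAR1HI minus BaP was 0.13 (adjusted p = 0.842), and its sign turned under FPKM, quantile normalization or median-of-ratios scaling, and without MAR1HI replicate 2.

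Within each library the Stat5b level divided by the Stat5a level gives a ratio that no linear scaling of libraries can change. It was 1.002 and 1.28 in BaP, 1.47 and 1.70 in MAR1HI, against 1.57 and 1.90 in MAR1INT. Both BaP ratios lay below all others, while MAR1HI and MAR1INT overlapped. Jak2 divided by the sum of Stat5a and Stat5b was 2.53 and 2.15 in BaP, 3.62 and 2.93 in MAR1HI, against 4.21 and 4.49 in MAR1INT, without overlap between groups. These ratios were not tested and are given as a description. The 2 genes lie 8765 bases apart and are similar in sequence: 608 of the 5535 distinct 50-base stretches of Stat5b transcripts in GENCODE M21 also occur in Stat5a transcripts. Reads from those stretches cannot be assigned with certainty, so the split between them is less certain than their sum. The summed level was 92.0 and 108 TPM in BaP, 105 and 166 in MAR1HI, against 186 and 170 in MAR1INT. Stat5a also shares exon bases with Stat3 on the opposite strand. Use of strand in the counting was not stated.

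**Figure D2:**
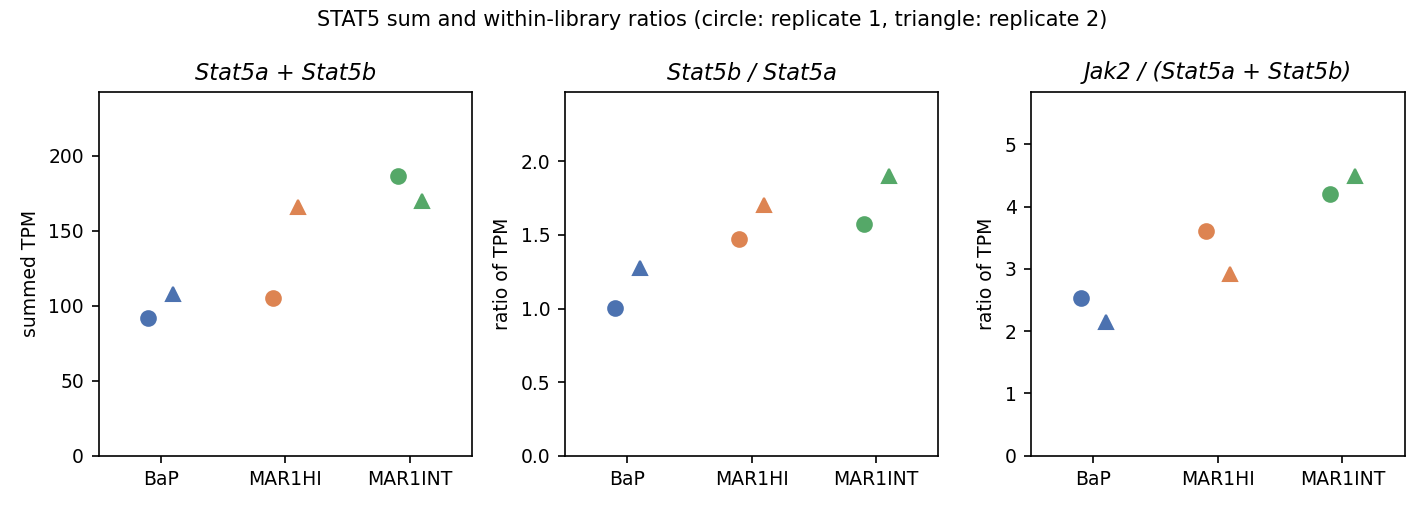
Summed TPM of Stat5a and Stat5b (left), the ratio of Stat5b to Stat5a (middle) and the ratio of Jak2 to their sum (right) in each library, by group, with vertical axes from 0. The Jak2 ratio forms separate steps from 2.15 in BaP to 4.49 in MAR1INT, and the Stat5b ratio parts BaP from the others only.

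Cish (gene 12700, mm10 chromosome 9, 107296659 to 107302784) encodes CIS, which blocks docking sites on cytokine receptors and is a classical STAT5 target. Its RNA was scarce in all 6 libraries, at 2.09 and 1.41 TPM in BaP, 1.75 and 3.46 in MAR1HI, against 1.14 and 4.85 in MAR1INT. The lowest and the highest value both belonged to MAR1INT, whose range covered those of the other groups. MAR1INT minus BaP was 0.37 with a 95% interval from -0.86 to 1.61 (adjusted p = 0.636), wide enough to hold a change of either sign. The mean read depth over the gene was 2.71 to 12.2 per base, against 663 to 1902 for Jak2. Cish also shares exon bases with Gm17040 and Gm17041 on the opposite strand.

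The STAT core was looked for in RefSeq promoter windows (GRCm38.p6), 300 bases from 250 before the start site to 50 from it on. Windows were given for 8 of the 10 genes, 11 in all, and not for Socs2 and Id1. The core TTCNNNGAA reads the same on both strands. It occurred in 8.30% of 32851 windows of all genes, and at least 2 times in 0.457%. Among the members it occurred only in Cish, with 2 matches, and in Socs3, with 1. The same TTC and GAA set 4 bases apart (both strands) occurred in 6.95% of all windows and in none of the members'. The stretches that hold the matches are shown 5′ to 3′ on each gene's own strand, with the matches in capitals, because they belong to members that stayed scarce. The Cish stretch starts 10 bases before the RefSeq start site and lies at chr9:107296649-107296678 on the plus strand, and the Socs3 stretch lies at chr11:117969501-117969530 on the minus strand.
Cish: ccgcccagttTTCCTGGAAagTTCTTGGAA
Socs3: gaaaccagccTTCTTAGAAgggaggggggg
For comparison, the 300-base window of Jak2, the most abundant member, holds no match. Both Cish matches lie from the start site on, so the 250 bases before the Cish start site hold no match either. The Socs3 match lies before its start site. The 250 bases before the Jak2 start site lie at chr19:29251553-29251802 on the plus strand, with a G and C content of 80.8%.
Jak2: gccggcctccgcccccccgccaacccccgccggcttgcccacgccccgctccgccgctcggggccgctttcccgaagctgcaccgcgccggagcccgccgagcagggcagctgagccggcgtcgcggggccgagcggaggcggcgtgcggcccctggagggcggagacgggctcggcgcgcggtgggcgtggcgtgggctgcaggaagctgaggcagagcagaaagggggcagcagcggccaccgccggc
A match is a description of letters, not a bound site, and enhancers outside these windows were not searched.

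The Socs genes encode proteins that bind JAKs or their receptors and mark them for breakdown. Socs1 (gene 12703, chromosome 16, 10783809 to 10785536), an inhibitor of JAK kinases, stood at 0.659 and 1.14 TPM in BaP, 0.957 and 1.47 in MAR1HI, against 1.53 and 0.855 in MAR1INT. Its groups overlapped, and no difference was called (MAR1INT minus BaP 0.20, 95% interval -0.72 to 1.12, adjusted p = 0.74). Under quantile normalization alone it was called higher in MAR1INT than in BaP (1.20, adjusted p = 0.0248). Socs3 (gene 12702, chromosome 11, 117966087 to 117969366), best known as a brake on receptors that signal through gp130, was at 0.195 and 0.257 TPM in BaP, 0.273 and 0.767 in MAR1HI, against 1.54 and 1.45 in MAR1INT. The order was the same as for Jak2 and no groups overlapped, yet at a depth of 0.58 to 3.64 reads per base. MAR1INT minus BaP was 1.03 (SE 0.38, adjusted p = 0.0699), which missed the threshold and passed it in 4 of 14 alternatives, among them quantile normalization (1.76, adjusted p = 0.0043).

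Socs2 (gene 216233, chromosome 10, 95411490 to 95416857), a STAT5 target known as the brake on growth hormone signalling, was listed at 0 in BaP replicate 1 and MAR1HI replicate 1. It stood at 0.278 TPM in the other BaP library and 0.965 in the other MAR1HI library, against 16.2 and 2.495 in MAR1INT. Both MAR1INT libraries lay above the rest, but MAR1INT replicate 1 was far above replicate 2, so the size of the difference rests on 1 library. Since it entered the test only through its MAR1INT values, its calls follow in part from the filter. It was called in MAR1INT against BaP (2.78, SE 0.70, adjusted p = 0.0152) and against MAR1HI (2.47, SE 0.70, adjusted p = 0.0402). Without MAR1INT replicate 1 the values were 1.63 and 1.32. The call against BaP was lost in 6 of 14 alternatives (adjusted p up to 0.104) and that against MAR1HI in 11 of 14 (up to 0.257). None of Cish, Socs1 and Socs3 exceeded 4.85 TPM in any library, where Jak2 never stood below 231 TPM.

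Pim1 (gene 18712, mm10 chromosome 17, 29491045 to 29495459), a constitutively active serine and threonine kinase that promotes survival and growth, followed Jak2 closely. Its level was 44.0 and 51.7 TPM in BaP, 70.8 and 100.5 in MAR1HI, against 178 and 176 in MAR1INT. No groups overlapped, and the MAR1INT libraries were the closest pair. MAR1INT exceeded BaP by 1.87 (SE 0.25, adjusted p = 0.00072), a 3.66-fold difference in TPM + 1, and this was called in 15 of 15 alternatives (1.62 to 1.98). MAR1INT exceeded MAR1HI by 1.06 (SE 0.25, adjusted p = 0.0207), a call lost in 4 of 15 alternatives (adjusted p up to 0.0841). MAR1HI minus BaP was 0.81 and was not called (adjusted p = 0.138). Pim1 shares exon bases with Gm26885 on the opposite strand, and reads of the pair cannot be told apart without strand.

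Pim2 (gene 18715, chromosome X, 7878306 to 7883432), a kinase of the same family, was much less abundant, at 1.42 and 2.29 TPM in BaP, 8.89 and 8.41 in MAR1HI, against 11.9 and 15.8 in MAR1INT. Its groups did not overlap, and most of the step lay between BaP and MAR1HI. MAR1INT exceeded BaP by 2.38 (SE 0.42, adjusted p = 0.0028), a 5.22-fold difference in TPM + 1. This call was lost in 1 of 15 alternatives, without BaP replicate 1 (adjusted p = 0.0514). MAR1HI minus BaP was 1.78 (SE 0.42) and was not called (adjusted p = 0.0622). It was called in 4 of 15 alternatives, among them the fit with only BaP and MAR1HI (0.0021).

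Id1 (gene 15901, chromosome 2, 152736251 to 152737410) encodes an inhibitor of basic helix-loop-helix transcription factors, and besides STAT5 it responds to bone morphogenetic proteins. It stood at 38.2 and 36.4 TPM in BaP, 75.8 and 89.6 in MAR1HI, against 125 and 115 in MAR1INT. The 3 groups were separate and the duplicates close. MAR1HI exceeded BaP by 1.12 on the log2 scale (SE 0.23, adjusted p = 0.0417) and MAR1INT exceeded BaP by 1.66 (SE 0.23, adjusted p = 0.00094), a 3.15-fold difference in TPM + 1. The second was called in 15 of 15 alternatives (1.40 to 1.72) and the first in 6 of 15 (adjusted p up to 0.297). MAR1INT minus MAR1HI was 0.53 and was not called (adjusted p = 0.158), with calls under FPKM (adjusted p = 0.0463), under median-of-ratios scaling (0.0174) and under quantile normalization (0.0262).

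**Figure D3:**
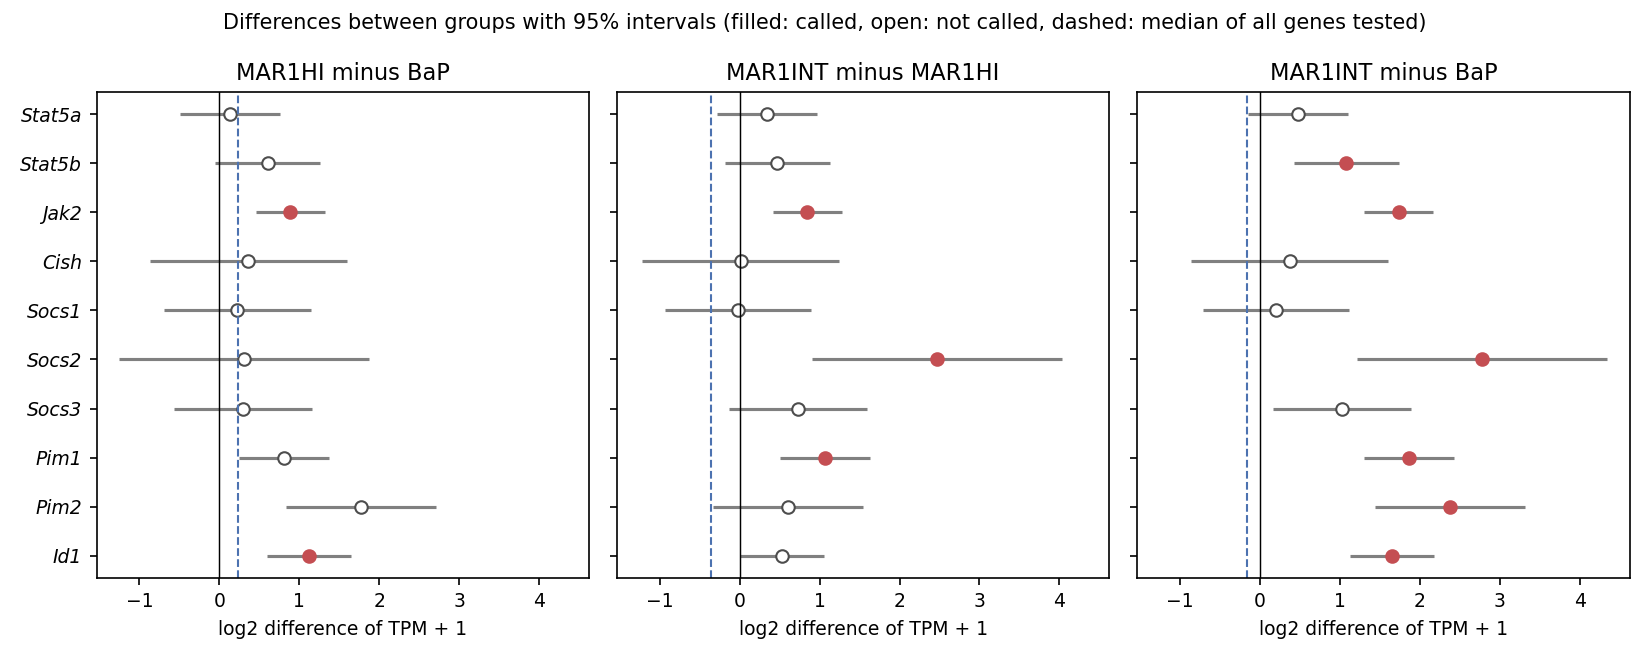
Log2 difference of TPM + 1 for each of the 10 genes (rows) in the 3 comparisons (panels), with 95% intervals from limma; filled points were called, and the dashed line is the median of all genes tested. In MAR1INT minus BaP (right) all 10 points lie above 0, from 0.20 for Socs1 to 2.78 for Socs2, and 6 are filled.

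The scaling of the tables bears on these values, because the median tested gene itself moved. In MAR1INT minus BaP it moved by -0.16 in TPM, -0.34 in FPKM, -0.17 with median-of-ratios factors and 0.11 under quantile normalization. All 10 members were above 0 in that comparison under each of these scalings. Relative to the median gene in TPM, Jak2 differed by 1.90, Pim1 by 2.03, Id1 by 1.82 and Pim2 by 2.55. MAR1HI replicate 2 stood apart in scale: its median-of-ratios factor was 1.35, against 0.900 to 0.976 in the other 5 libraries. For Jak2 the MAR1HI duplicates stood at 381 and 485 in TPM but at 217 and 224 in FPKM, and for Id1 at 75.8 and 89.6 in TPM but 43.3 and 41.4 in FPKM. Because all libraries share 1 estimate of the spread, both MAR1HI libraries bear on the calls of MAR1INT minus BaP as well. In a limma fit of only BaP and MAR1INT, 5 members and 3204 genes were called there, and Socs2 was not (adjusted p = 0.0618).

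Other genes of the pathway were examined by role, from lists that also hold genes without expression here. Of 30 cytokine receptor genes 20 were tested, and 6 were called higher and 1 lower in MAR1INT than in BaP, where 11.1% and 20.4% of all genes were. The signalling chain Csf2rb, the beta chain to which JAK2 binds, rose from 307 ± 61.1 TPM (SD, n = 2) in BaP to 686 ± 80.4 in MAR1HI and 1555 ± 40.4 in MAR1INT (MAR1INT minus BaP 2.35, adjusted p = 9.1e-05). Its neighbour Csf2rb2, the mouse-specific beta chain used with interleukin 3, rose from 110 ± 15.2 to 276 ± 12.9 and 734 ± 24.2 TPM (2.74, adjusted p = 5.2e-05). Of the 50-base stretches of Csf2rb2 transcripts, 18.9% occur in another gene, mostly Csf2rb, so the split of the paralogs is uncertain. Il10ra, the ligand-binding chain of the interleukin 10 receptor, rose from 5.13 ± 1.10 to 30.02 ± 0.469 TPM (2.35, adjusted p = 0.0022), and Il7r from 3.55 ± 2.21 to 103 ± 9.78 (4.61, adjusted p = 0.0001). Of the ligand-specific chains, Il3ra, which binds interleukin 3, stood at 94.5 ± 1.97, 148 ± 6.55 and 123 ± 18.7 TPM and Crlf2, the TSLP-specific chain, at 33.0 ± 4.25, 53.5 ± 6.39 and 38.1 ± 3.92, with no difference called for either (MAR1INT minus BaP adjusted p = 0.221 and 0.603). The only receptor called lower, Il6ra, stood at 3.88 ± 2.62 TPM in BaP and 0.285 ± 0.255 in MAR1INT (-1.83, adjusted p = 0.0182). Csf2ra, which binds GM-CSF, stood at 14.5 ± 3.71, 8.37 ± 0.996 and 7.16 ± 2.02 TPM (-0.93, adjusted p = 0.117). Il5ra, which binds interleukin 5, was below the minimum for testing, at 0.504 and 0.392 TPM in BaP and listed at 0 in both MAR1INT libraries. Il7r, given above, is also a chain of the TSLP receptor. Il3ra, Crlf2, Il6ra, Csf2ra and Il5ra were named after their values were seen. Between MAR1HI and BaP 3 of the 20 receptor genes were called higher (1.83% of all genes) and 0 lower (0.662%). Between MAR1INT and MAR1HI 4 of the 20 were called higher (2.29% of all genes) and 0 lower (14.5%).

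Of 8 other JAK and STAT genes, all tested, 3 were called higher in MAR1INT than in BaP and 0 lower, where 11.1% and 20.4% of all genes were. Stat4, which carries signals of interleukin 12, rose from 58.9 ± 3.92 TPM in BaP to 121 ± 28.7 in MAR1HI and 236 ± 4.59 in MAR1INT (1.99, adjusted p = 0.00041). Stat6, the factor behind interleukin 4, rose from 43.4 ± 0.0117 to 113 ± 8.34 TPM (1.36, adjusted p = 0.005), and Jak1, a kinase used by many cytokine receptors, from 103 ± 14.2 to 240.6 ± 35.1 (1.21, adjusted p = 0.0069). Of 17 ligand genes 15 fell below the minimum for testing, among them Il3 and Csf2, listed at 0 in all 6 libraries. Both tested ligands were called higher than in BaP, in MAR1HI (1.83% of all genes) as in MAR1INT (11.1%). Between BaP and MAR1INT the level rose, for Il6, from 112 ± 3.71 to 390.2 ± 10.06 TPM (1.79, adjusted p = 0.0003) and, for Il4, from 36.6 ± 6.51 to 124 ± 28.1 (1.72, adjusted p = 0.0017).

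Of 16 other inhibitors, all tested, 2 were called higher in MAR1INT than in BaP and 0 lower, a count near the share of all genes called higher (11.1%). They were Pias3, a SUMO ligase that binds STAT proteins (12.4 ± 0.890 to 28.0 ± 2.47 TPM, adjusted p = 0.0291), and Ptprc, the phosphatase CD45 (84.1 ± 8.89 to 156 ± 28.3, adjusted p = 0.0361). These calls were lost in the fits without BaP replicate 1, BaP replicate 2 or MAR1INT replicate 1. Fewer of all genes were called higher in those fits too. The median of this list was 0.02, against -0.16 for all genes tested. Of 14 other genes reported as STAT5 targets 12 were tested, with 4 called higher and 2 lower, where 11.1% and 20.4% of all genes were. Osm, the cytokine oncostatin M, rose from 16.1 ± 5.26 TPM in BaP to 56.3 ± 21.1 in MAR1HI and 130 ± 27.3 in MAR1INT (2.96, adjusted p = 0.00041), and Id2, a relative of Id1, from 11.5 ± 0.851 to 45.5 ± 3.94 (1.90, adjusted p = 0.0017). Gata2, a factor basophils need (309 ± 55.8 to 639 ± 51.2 TPM, adjusted p = 0.004), and Mcl1, a survival protein (37.2 ± 1.40 to 75.6 ± 28.5, adjusted p = 0.0459), were the others, outside the naming rule and named after their values were seen. The survival gene Bcl2 fell from 17.8 ± 2.30 to 4.03 ± 2.48 TPM (-1.99, adjusted p = 0.0116). The cell cycle inhibitor Cdkn1a stood at 3.29 and 2.38 TPM in BaP and 4.66 and 5.03 in MAR1HI and was listed at 0 in both MAR1INT libraries (adjusted p = 0.0063). Without BaP replicate 1, fewer of these target genes were called between MAR1INT and BaP, and fewer of all genes as well. Osm was also the only target called between MAR1HI and BaP, where it was higher (1.83% of all genes were). Between MAR1INT and MAR1HI, Osm and Myc were called higher (2.29% of all genes) and Cdkn1a lower (14.5%). Myc, a growth regulator also named after its values were seen, stood at 48.1 ± 0.456 TPM in BaP, 26.5 ± 2.07 in MAR1HI and 69.2 ± 15.2 in MAR1INT.

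**Figure D4:**
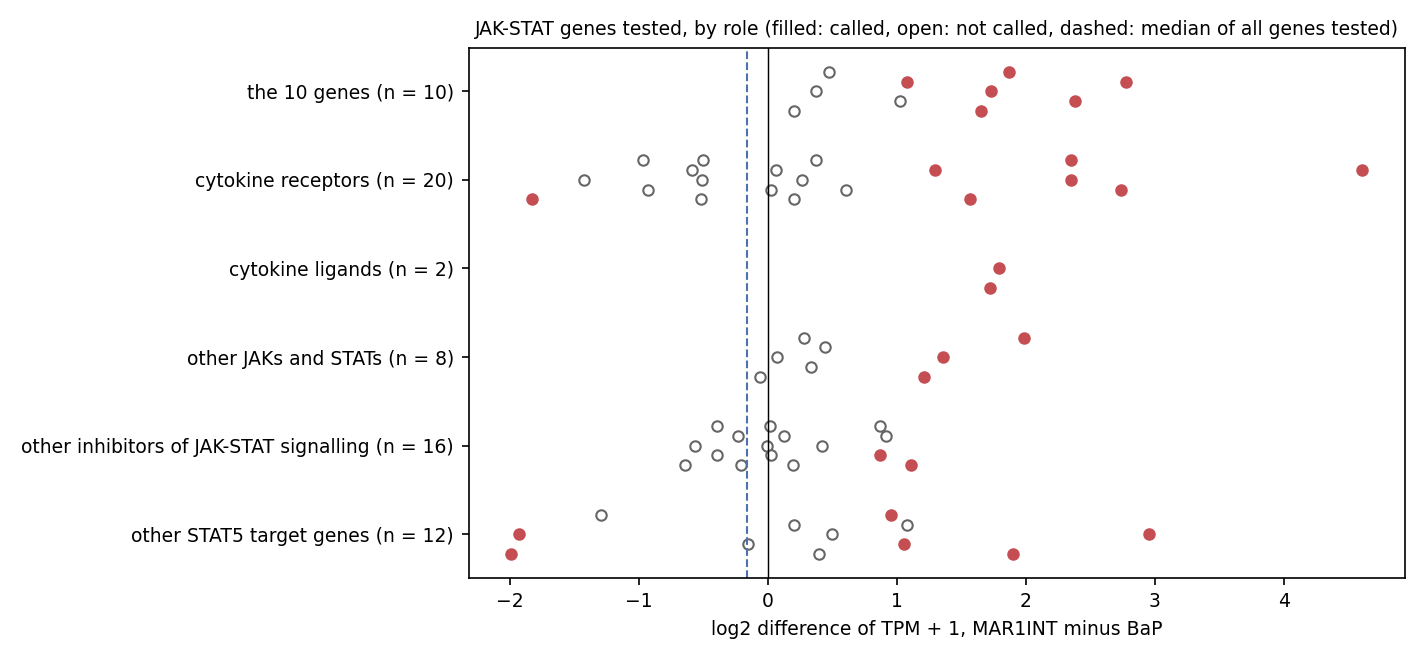
Log2 difference of TPM + 1, MAR1INT minus BaP (horizontal axis), for each tested gene of the 10 and of the other JAK-STAT lists (rows, spread vertically within a row for legibility); filled points were called, and the dashed line is the median of all genes tested. The other inhibitors cluster around 0 with 2 of 16 filled, and Il7r at 4.61 is the point farthest to the right.

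The genes nearest to each member in pattern over the 6 libraries were found among all tested genes, by the root mean square difference between profiles of log2(TPM + 1) centred on their means. Map3k5, a stress-activated kinase, lay nearest to Jak2 (0.019 log2, Pearson r = 0.9997 over 6 libraries), at 75.6 and 77.7 TPM in BaP, 129 and 163 in MAR1HI, against 260 and 257 in MAR1INT. Stk10, a kinase of lymphoid cells, came next (0.040). Zfp516, a zinc finger gene, lay nearest to Pim1 (0.042), Il6 nearest to Id1 (0.063), Galnt6 nearest to Stat5b (0.056) and Casz1 nearest to Stat5a (0.039). For Pim2 the nearest gene was Cyp4f18 at a larger distance (0.21), for Socs3 Tnrc6a (0.064), for Cish Orai3 (0.082) and for Socs1 Prrc2a (0.069). For Socs2 no gene came closer than 0.44 (Olfr1034). These are descriptions over 6 libraries that fall into 3 groups, and many genes share such a course.

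Other features of the libraries differed between the groups as well. Basophil markers were present in every library (none of 10 at 0), with Mcpt8 between 2161 and 6416 TPM. In MAR1INT against BaP 5 of 10 were called higher and 4 lower. In that comparison, which the counts of the lists below also use, 11.1% of all genes were called higher and 20.4% lower. The basophil markers summed to 17146 and 22022 TPM in BaP, 22031 and 18455 in MAR1HI, against 14521 and 11871 in MAR1INT. Immediate early genes, which rise fast when cells are handled or stimulated, followed the order of Jak2 and Pim1 in sum, but not gene by gene. Their summed TPM was 196 and 326 in BaP, 388 and 541 in MAR1HI, against 806 and 835 in MAR1INT, and 8 of 14 tested were called higher in MAR1INT than in BaP, among them Zfp36 (3.44), Junb (2.78) and Ier2 (1.89). Fos, Egr1 and Dusp1 were not called. Eosinophil markers summed to 2166 and 1152 TPM in BaP, 109 and 158 in MAR1HI, against 213 and 349 in MAR1INT. Epx, Prg3, Ear6 and Il5ra were listed at 0 in both MAR1INT libraries. Between MAR1INT and BaP 5 of 8 tested were called lower and 2 higher. The 2 were Ccr3 (5.46 ± 0.215 TPM in BaP and 126 ± 7.72 in MAR1INT) and Siglecf (21.4 ± 0.680 and 94.6 ± 21.4). Neutrophil markers summed to 6610 and 12579 TPM in BaP and 4414 and 3795 in MAR1INT (7 of 17 called lower, none of 17 at 0). Of the dendritic cell and antigen presentation markers 7 of 9 tested were called lower, and of monocyte and macrophage markers 9 of 14 lower and 1 higher (Ccr2). The summed TPM of the latter list was higher in MAR1INT, at 984 and 979 against 677 and 660 in BaP, and Ccr2 alone stood at 618 and 565 TPM there against 85.2 and 56.2. Mast cell markers summed to 45.5 and 42.1 TPM in BaP and 0.0446 and 0.449 in MAR1INT, where 7 of 8 were listed at 0. Kit made up nearly all of that sum, at 44.9 and 38.6 TPM in BaP, a group sorted as c-Kit-negative, 2.94 and 4.36 in MAR1HI, against 0.0446 and 0.449 in MAR1INT. Kit is also a progenitor marker, and the other 7 mast cell markers stood at or below 1.42 TPM in every library. The part of these cells, or of the immediate early genes, in the levels of the 10 genes was not tested. The libraries were of similar depth, with 4.75 to 5.28 gigabases of aligned sequence each. Fewer genes reached 1 TPM in MAR1INT (9604 and 9705) than in BaP (10983 and 11544) or MAR1HI (10710 and 11038), and the part of this in the members' levels was not tested. The spread between duplicates over all tested genes was larger in MAR1INT (0.67, log2) than in BaP (0.42) or MAR1HI (0.43).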

How the data were processed

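The submitters' processing notes name Trimmomatic, HISAT2, StringTie and mm10; their versions, options and annotation are not given in the sources used here. Per the labels, RNA came from TRIzol LS extraction and a SureSelect kit. Whether a capture step was used was not established here. If it was, levels of different genes may carry unequal capture. The deposited tables give, per the file headers, a coverage signal (mean read depth per base), FPKM and TPM for each gene. The authors' TPM column sums to 1000000 in each library, and depth follows from coverage divided by FPKM. No read counts were used. Symbols came from a RefSeq gene table (GRCm38.p6) for 24462 of 24532 IDs, and parts of an ID were summed.

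Genes with 1 TPM or more in at least 2 of 6 libraries were tested in limma (3.58.1, R 4.3.3), by linear models with variances moderated along an intensity trend (eBayes), on log2(TPM + 1), with 1 term per group over all libraries. All p-values are two-sided and were adjusted by Benjamini and Hochberg's method across 11337 genes. Residual degrees of freedom were 3, and prior ones 6.39 at the median. Log2 differences on this scale understate changes of low genes. The script was tested on simulated data. Named are the 10 members, up to 4 called genes of each role list with the largest differences, and the tested genes nearest in pattern to each member; genes outside this rule are marked in the text. The members, lists and tests were chosen with earlier results of these data known. Tables were made in Python 3.11.15 (pandas 2.3.3, numpy 2.4.6) and plots in matplotlib 3.10.9.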

Additional observations from a re-analysis of the deposited data

How the results depend on the processing

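Across the 15 alternatives, the 30 member differences gave 438 values, of which 359 kept direction and call, 50 lost the call, 15 gained one and 14 changed sign. For MAR1INT minus BaP, 6 members were called; leaving out 1 library gave 3 to 6. For MAR1HI minus BaP, where 2 were called, the count was 0 with no filter, a pseudocount of 0.1, median-of-ratios scaling, no trend or the replicate block, 1 with FPKM, and 0 to 3 without 1 library. For MAR1INT minus MAR1HI, where 3 were called, it was 0 with no filter or no trend, 5 with quantile normalization and 5 under median-of-ratios scaling, and 0 to 3 without 1 library. Over all genes, the 282 calls of MAR1HI minus BaP became 4 with no filter, 89 with a pseudocount of 0.1, 1062 in a fit of those 2 groups, 104 with no trend, and 3 to 1092 without 1 library. The 1900 of MAR1INT minus MAR1HI became 562 with no filter and 239 to 2611 without 1 library, and the 3574 of MAR1INT minus BaP became 2358 and 1581 to 4024. Where 5 members were called in MAR1INT minus MAR1HI, more of all genes were called higher as well. Against 260 in the main fit, 786 genes were called higher after quantile normalization, while median-of-ratios factors gave 803. Genes called lower there were 1640 in the main fit, and 948 and 1229 under these scalings. The rise to 5 is therefore not particular to the members. The cause of these moves was not tested. A fit that leaves out a library assumes that the lone one varies like the other groups.

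The share of calls that were higher was 73.4% for MAR1HI minus BaP (57.3% with FPKM, 56.9% with quantile normalization, 59.9% with median-of-ratios scaling), 13.7% for MAR1INT minus MAR1HI (16.5%, 45.3% and 39.5%) and 35.3% for MAR1INT minus BaP (27.8%, 55.1% and 41.2%). Signs changed only for uncalled differences. Stat5a in MAR1HI minus BaP was -0.093 with FPKM, -0.18 with quantile normalization, -0.17 with median-of-ratios scaling and -0.13 to 0.39 without 1 library. For MAR1INT minus MAR1HI, Cish was -0.051 with a pseudocount of 0.1 and -0.71 to 0.74 without 1 library, and Socs1 was 0.99 with quantile normalization, 0.14 with median-of-ratios scaling and -0.24 to 0.20 without 1 library. Without 1 library, Socs2 in MAR1HI minus BaP ranged from -0.18 to 0.80, and in MAR1INT minus BaP Cish ranged from -0.35 to 1.10 and Socs1 from -0.021 to 0.43. Whether same-numbered libraries are paired is not known. Their deviations from the group means correlated at 0.15, -0.09 and -0.06 between groups. With 2 libraries per group these values cannot show whether libraries share animals or a day of sorting. With the replicate block 0, 3 and 6 members and 211, 1760 and 3394 genes were called in the 3 comparisons. Stat5a, Cish and Socs1 had 95% intervals that hold differences of either sign in all 3 comparisons.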
